A study of Mus musculus with 9 samples.

Results

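The keratin family was followed here across thymic cells of a reporter mouse. Its members were all genes whose only symbol in the array annotation is Krt followed by digits and at most 1 letter, so keratin-associated proteins stayed out. The rule used no measured value and found 48 keratins among the 18194 genes with a symbol of their own. Each gene was read from its brightest probe set, the one with the highest mean log2 intensity over the 9 arrays. By known site of expression, 5 members were simple-epithelial, 3 basal, 13 suprabasal, 20 hair and 7 other keratins.

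RNA was measured on 9 Affymetrix whole-genome mouse arrays in 3 groups of 3, titled ZsG plus, ZsG minus mTEC and ZsG minus cTEC. The reporter ZsGreen (ZsG) fluoresces green, and mTEC and cTEC are the usual short forms for medullary and cortical epithelial cells of the thymus. The labels give a C57BL/6 background and BAC transgenic mice of 8 to 20 weeks, in which the reporter stands at the start codon of Tslp, the gene of the cytokine thymic stromal lymphopoietin. All 3 groups share that background, no treatment is named, and RNA input was 5 ng, amplified before labelling. How the cells were gated in the sort is not stated in the labels. A cell type field reads keratinocytes for every sample, and the groups follow the titles. Since the labels do not tie replicates to separate animals, a p-value here reflects only how far these samples scatter, and that scatter may be technical.

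Keratins are the intermediate filament proteins of epithelial cells. A filament is built from a type I keratin joined to a type II keratin, and the pairs in use change with the kind of epithelium: Krt8 with Krt18 in single-layered epithelia, Krt5 with Krt14 in the basal layer of stratified epithelia, Krt1 with Krt10 above it, and hair keratins in the hair follicle. In the thymus, Krt8 and Krt18 are used as stains for cortical and Krt5 and Krt14 for many medullary epithelial cells, and part of the medulla resembles cornifying epidermis.

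The type I genes lie in a cluster on chromosome 11 and the type II genes, with Krt18, on chromosome 15. Upstream sequence is shown for the keratins that passed the test in a comparison below, since these are the members on which the results turn. RefSeq (GRCm38.p6) gave a promoter entry for 32 of the 48 keratins and for 5 of the 6 that passed. Krt16 is the sixth and is named only. All 5 lie on the minus strand, and each line holds the 250 bases before the start of the gene, 5′ to 3′. The stretches are chr11:99389365-99389614 for Krt10, chr15:101869706-101869955 for Krt77, chr15:101940325-101940574 for Krt79, chr15:101743098-101743347 for Krt71 and chr15:101802361-101802610 for Krt73. Capitals mark matches to the motifs spelled out after the last line.
Krt10: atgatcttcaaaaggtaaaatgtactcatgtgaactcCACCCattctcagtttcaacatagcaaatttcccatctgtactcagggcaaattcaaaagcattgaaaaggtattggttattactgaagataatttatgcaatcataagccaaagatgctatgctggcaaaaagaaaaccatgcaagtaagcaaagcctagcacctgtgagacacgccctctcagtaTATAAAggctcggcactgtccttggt
Krt77: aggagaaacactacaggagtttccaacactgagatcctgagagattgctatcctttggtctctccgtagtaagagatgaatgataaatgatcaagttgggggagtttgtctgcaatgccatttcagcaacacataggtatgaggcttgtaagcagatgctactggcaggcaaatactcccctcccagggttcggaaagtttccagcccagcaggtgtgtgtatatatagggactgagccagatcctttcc
Krt79: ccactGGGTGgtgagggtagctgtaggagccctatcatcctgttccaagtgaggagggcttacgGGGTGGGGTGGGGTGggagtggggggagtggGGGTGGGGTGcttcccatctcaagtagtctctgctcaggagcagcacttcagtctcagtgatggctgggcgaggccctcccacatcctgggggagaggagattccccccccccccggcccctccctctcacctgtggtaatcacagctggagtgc
Krt71: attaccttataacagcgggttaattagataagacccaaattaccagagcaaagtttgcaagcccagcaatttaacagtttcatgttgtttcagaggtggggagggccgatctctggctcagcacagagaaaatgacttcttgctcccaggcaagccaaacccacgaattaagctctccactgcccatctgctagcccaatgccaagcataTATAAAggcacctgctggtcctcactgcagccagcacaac
Krt73: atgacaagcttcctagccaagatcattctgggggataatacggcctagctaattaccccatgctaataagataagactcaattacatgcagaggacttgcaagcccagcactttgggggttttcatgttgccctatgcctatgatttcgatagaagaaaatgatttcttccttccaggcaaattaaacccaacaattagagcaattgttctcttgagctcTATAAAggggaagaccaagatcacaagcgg

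The TATA box, searched only as the exact letters TATAAA on the sense strand, had a match upstream of 3 of these 5 genes. The first base lay 26 bases before the start in Krt10, 40 in Krt71 and 30 in Krt73. Other forms were not searched, so the tatatata upstream of Krt77 was not counted. Over all RefSeq promoters of this length, 7.59% held TATAAA, and 14 of 33 keratin promoters did. The motif of Klf and Sp factors, searched as CACCC on both strands, was found at 1 place upstream of Krt10 and at 6 upstream of Krt79, and it stood in 52% of all promoters and 27 of the 33 keratin promoters. The AP-1 motif, searched as TGANTCA on both strands, had no match in the 5 stretches, and it occurred in 6.75% of all promoters and 2 of the keratin promoters. Nor did the AP-2 motif, searched as GCCNNNGGC on both strands, match here, while 13.7% of all promoters and 3 of the keratin promoters held it. No match to 1 motif overlapped a match to another. A match is a description of the letters and not a shown binding site.

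All 9 columns of the authors' deposited intensities shared a trimmed mean of 1250. Median intensity still lay lower on the ZsG plus arrays, at 230 to 316, than on the ZsG minus mTEC arrays, at 366 to 424, and the ZsG minus cTEC arrays, at 376 to 404. The ratio of 3′ to 5′ Gapdh probe sets, a sign of RNA length, was 6.71 to 10.6 on ZsG plus arrays and 4.55 to 5.97 on the other arrays. A 3′ probe set of the bacterial control lysX read 98272 to 251468 on ZsG plus arrays, and 6607 to 33314 on the other 6. Summed over 9 measured mTEC markers, intensity ran between 88798 and 95660 for ZsG plus, 95798 and 102485 for ZsG minus mTEC, and 33615 and 52614 for ZsG minus cTEC. Summed over 10 cTEC markers, it was 58967 to 93716, 62849 to 88295 and 283432 to 338458 in the same order of groups. The titles of the ZsG minus groups match these sums. Above the control range described next were all 9 mTEC and 6 of the 10 cTEC markers in ZsG plus. In ZsG minus mTEC these counts were 9 and 10, and in ZsG minus cTEC 8 and 10. They do not tell the ZsG minus groups apart, and the limit was highest on 2 of the ZsG plus arrays. Markers of other cells were read as well. The sum of 11 thymocyte markers was 9545 to 25918 for ZsG plus, 7267 to 13149 for ZsG minus mTEC, and 49898 to 65003 for ZsG minus cTEC. Within the 25918, on ZsG plus replicate 1, Lef1 alone read 17695, and it also stands in the list of hair keratin regulators below. The sum of 7 fibroblast markers was 5105 to 25800, 4897 to 7820 and 34740 to 53080 in the same order of groups. That of 8 mesothelial markers was 3824 to 17998, 5955 to 7658 and 10222 to 19820. Of these 8 markers, 1, 4 and 8 were above the control range on all 3 arrays of the group. The 25800 and the 17998 were both on ZsG plus replicate 3, the array with the lysX value of 251468. For 6 tuft cell markers the sum was 22004 to 35169, 16739 to 20578 and 6564 to 26996 in the same order of groups. Summed over 8 dendritic cell and macrophage markers, which include Cd74, a gene thymic epithelium also expresses, intensity was 199431 to 345227, 139262 to 172051 and 100168 to 142042. The part of these differences, of RNA length, median intensity and the lysX control included, in the keratin values was not tested. In such bulk samples, fewer cells of a type and less RNA per cell cannot be told apart.

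As a guide to which keratins were measured above background, each array's own PheX and DapX bacterial control probe sets were used, and not lysX. The brightest PheX or DapX value was 144, 341 and 307 for ZsG plus, 131, 139 and 48.7 for ZsG minus mTEC, but 128, 142 and 241 among cTEC arrays. This limit was highest on 2 of the ZsG plus arrays, so the counts above it differ between groups through the limit as well as through the keratins. Above it on all 3 arrays lay 21 of 48 keratins in ZsG plus cells, 39 in ZsG minus mTEC, and 22 among cTEC arrays. On all 9 arrays, 16 keratins were above it, and 39 were so on every array of at least 1 group. By class, all 5 simple-epithelial keratins passed in ZsG plus and ZsG minus mTEC, and 4 did among cTEC arrays. Of the 20 hair keratins, 3 did in ZsG plus, 13 in ZsG minus mTEC, but 4 among cTEC arrays. The median SD of a keratin within a group was 1.07 on the log2 scale in ZsG plus cells, 0.52 in ZsG minus mTEC, but 0.82 among cTEC arrays, against 1.30, 0.63 and 0.61 for all genes.

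Reporter-positive cells were first set against reporter-negative cortical cells. By limma, 4 of the 48 keratins passed an adjusted p of 0.05, all of them higher in ZsG plus and all assigned to the suprabasal class: Krt10, Krt16, Krt77 and Krt79. Of all genes, 1.74% passed in either direction, 0.599% as higher and 1.14% as lower. None of the keratins passed as lower. At an unadjusted p under 0.05, 15 keratins were higher and 0 lower, where 7.44% and 11.3% of all genes were. The log2 difference was above 0 for 39 keratins, as it was for 46.3% of all genes. The keratin median was 0.99 against -0.14 for all genes, a gap of 1.13.

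Krt10, the type I keratin of the spinous layer, had intensities of 14802, 18628 and 14411 in ZsG plus cells, 13922, 12365 and 13504 in ZsG minus mTEC, and 2050, 1366 and 3031 in ZsG minus cTEC. Both other groups lay clear of the cTEC arrays, and the lowest ZsG plus array lay just above the highest ZsG minus mTEC array. The difference of ZsG plus over ZsG minus cTEC was 2.96 ± 0.52 on the log2 scale (SE), 7.76-fold, with an adjusted p of 0.0358.

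Krt1, the type II partner of Krt10, read 999, 3246 and 2400 in ZsG plus cells, 2871, 1400 and 1172 in ZsG minus mTEC, and 158, 144 and 574 in ZsG minus cTEC. The cTEC arrays were the lowest without overlap, while the other groups overlapped each other. Its difference of 3.07 ± 0.76 for ZsG plus over ZsG minus cTEC did not pass, at an adjusted p of 0.0795.

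Krt77, a type II keratin of suprabasal epidermis in the mouse, stood at 10123, 5611 and 2085 in ZsG plus cells, 4515, 4418 and 5445 in ZsG minus mTEC, and 106, 165 and 709 in ZsG minus cTEC. ZsG plus arrays spread widely around the tight ZsG minus mTEC arrays, and all of them exceeded the cTEC arrays. ZsG plus was higher than ZsG minus cTEC by 4.41 ± 0.84, 21.2-fold, with an adjusted p of 0.0417.

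Krt79, known in the mouse from the follicle opening and sebaceous duct, was placed here in the suprabasal and not in the hair class. It gave 8564, 2185 and 1392 in ZsG plus cells, 771, 734 and 2245 in ZsG minus mTEC, and 202, 145 and 232 in ZsG minus cTEC. Again the cTEC arrays lay lowest, and 1 of the ZsG minus mTEC arrays fell among the ZsG plus arrays. The excess of ZsG plus over ZsG minus cTEC was 3.97 ± 0.79, 15.7-fold, with an adjusted p of 0.0436.

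Krt16 is a type I keratin induced by stress and wounding. Its intensities were 5868, 7339 and 4854 in ZsG plus cells, 3913, 4314 and 5540 in ZsG minus mTEC, and 169, 162 and 836 in ZsG minus cTEC. All 6 arrays of the first groups exceeded every cTEC array. ZsG plus stood above ZsG minus cTEC by 4.38 ± 0.71, 20.9-fold, with an adjusted p of 0.0273.

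These 4 calls rested on a spread estimated from all 9 arrays. With only the 6 arrays of the comparison the keratin count was 0, as it was without ZsG minus cTEC replicate 1 or 2. None of all 18194 genes passed in these settings either. Without ZsG minus mTEC replicate 1, 2 or 3 it was again 0 keratins, with 81, 79 and 51 of all genes against 317 before. Without ZsG minus cTEC replicate 3 the count was 1, Krt16, with 23 of all genes. Without ZsG plus replicate 1 the keratin count was 5, with 685 of all genes. Krt1 as higher and Krt15 as lower were added, and Krt77 was no longer past the threshold. Without ZsG plus replicate 2, Krt76 passed and Krt77 did not, where 735 of all genes passed. Leaving out any array kept each log2 difference between 2.67 and 5.22, with adjusted p between 0.0320 and 0.157.

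**Figure D1:**
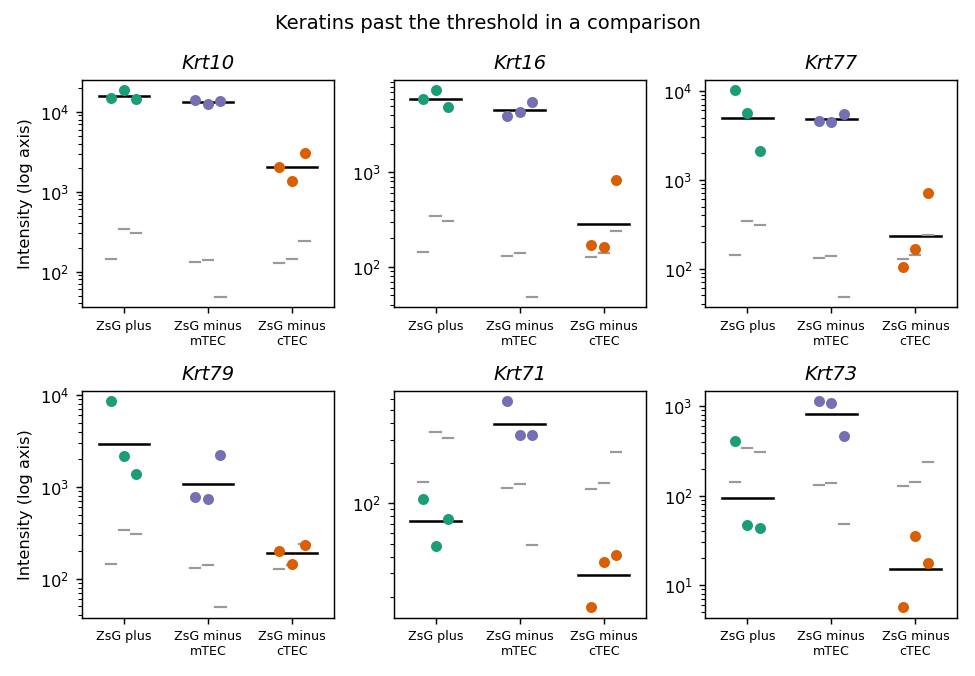
Intensity (log axis) on each of the 9 arrays for the 6 keratins that passed the test in a comparison. Points are arrays, black bars geometric means of a group, and grey ticks each array's brightest PheX or DapX control probe set. Krt10, Krt16, Krt77 and Krt79 lie lowest on the ZsG minus cTEC arrays, while Krt71 and Krt73 stand above the control ticks on all 3 ZsG minus mTEC arrays.

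Among the remaining suprabasal keratins, Krt17, a type I keratin of stressed epidermis and hair follicles, read 24015, 17308 and 21247 in ZsG plus cells, 13823, 12199 and 12022 in ZsG minus mTEC, and 6798, 3297 and 6760 in ZsG minus cTEC. The 3 groups did not overlap and ran in that order, while in its other, much dimmer probe set they overlapped. For ZsG plus its differences were 0.71 ± 0.53 over ZsG minus mTEC and 1.96 ± 0.53 over ZsG minus cTEC, with adjusted p of 0.58 and 0.103. Krt76, a keratin of oral epithelium, showed 2374, 365 and 3809 in ZsG plus cells, 2183, 1825 and 1622 in ZsG minus mTEC, and 185, 232 and 19.3 in ZsG minus cTEC. ZsG plus replicate 2 was the low array of its group and still above the cTEC arrays. The difference of 3.99 ± 1.12 over ZsG minus cTEC had an adjusted p of 0.11. The wound keratins Krt6a and Krt6b varied by array, with 2330, 2414 and 235 in ZsG plus cells, 324, 327 and 983 in ZsG minus mTEC, and 185, 609 and 1505 in ZsG minus cTEC for Krt6a, whose groups overlapped throughout. All 13 suprabasal keratins had a difference above 0 for ZsG plus over ZsG minus cTEC, with a median of 2.96. In 7 of them the groups did not overlap, as was true of 9.9% of all genes in that direction.

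**Figure D2:**
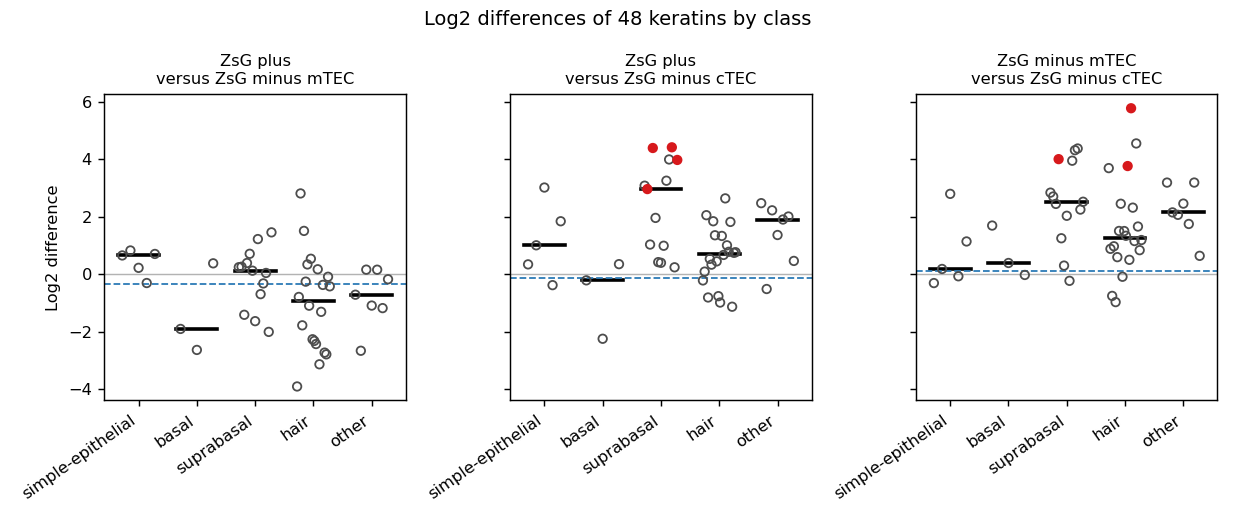
Log2 differences of the 48 keratins by class in the 3 comparisons; each point is a gene, red where it passed the limma threshold, the black bar is the class median and the dashed blue line the median of all 18194 genes. Suprabasal medians stand at 2.96 and 2.52 in the comparisons with ZsG minus cTEC and at 0.12 between ZsG plus and ZsG minus mTEC.

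Of the simple-epithelial class, Krt8 is the type II member of the pair common to single-layered epithelia. The brightest of its 3 probe sets read 58882, 63161 and 77587 in ZsG plus cells, 44206, 39917 and 37980 in ZsG minus mTEC, and 18523, 16029 and 21243 in ZsG minus cTEC. In this probe set the groups did not overlap, with ZsG plus the highest and ZsG minus cTEC the lowest. The difference was 1.84 ± 0.48 for ZsG plus over ZsG minus cTEC, with an adjusted p of 0.0951, and 0.70 ± 0.48 over ZsG minus mTEC, with an adjusted p of 0.549. Its other probe sets gave smaller differences over ZsG minus cTEC, 0.74 and 0.51. In 1 of them ZsG minus mTEC overlapped ZsG minus cTEC, and in the other all 3 groups overlapped, so the size and the separation depend on the probe set.

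Krt18, the type I partner of Krt8, had 77710, 68176 and 167989 in ZsG plus cells, 62014, 61088 and 60802 in ZsG minus mTEC, and 75634, 66211 and 87628 in ZsG minus cTEC. Here ZsG plus and ZsG minus cTEC overlapped, and the ZsG minus mTEC arrays were the lowest. Over ZsG minus cTEC, the difference of ZsG plus came to 0.34 ± 0.54 and that of ZsG minus mTEC to -0.31 ± 0.54, with adjusted p of 0.773 and 0.926.

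Krt19, found in ducts and other simple epithelia, showed 9701, 7089 and 9568 in ZsG plus cells, 5343, 4824 and 4614 in ZsG minus mTEC, and 4981, 3514 and 4671 in ZsG minus cTEC. ZsG plus was above both other groups on every array. The differences were 0.82 ± 0.49 over ZsG minus mTEC and 1.00 ± 0.49 over ZsG minus cTEC, with adjusted p of 0.497 and 0.311. Krt20, a keratin of gut epithelium and Merkel cells, had 687, 1473 and 11088 in ZsG plus cells, 1658, 1549 and 2770 in ZsG minus mTEC, and 474, 81.8 and 553 in ZsG minus cTEC. The cTEC arrays were the lowest, and ZsG plus spread from below to above the ZsG minus mTEC arrays. Its differences over ZsG minus cTEC were 3.01 ± 1.10 for ZsG plus and 2.79 ± 1.10 for ZsG minus mTEC, with adjusted p of 0.188 and 0.331. Krt7, another simple-epithelial type II keratin, read 8692, 1986 and 2379 in ZsG plus cells, 3601, 4939 and 4386 in ZsG minus mTEC, and 4496, 4441 and 4555 in ZsG minus cTEC. ZsG plus replicate 1 lay above all other arrays and the other ZsG plus arrays below them.

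**Figure D3:**
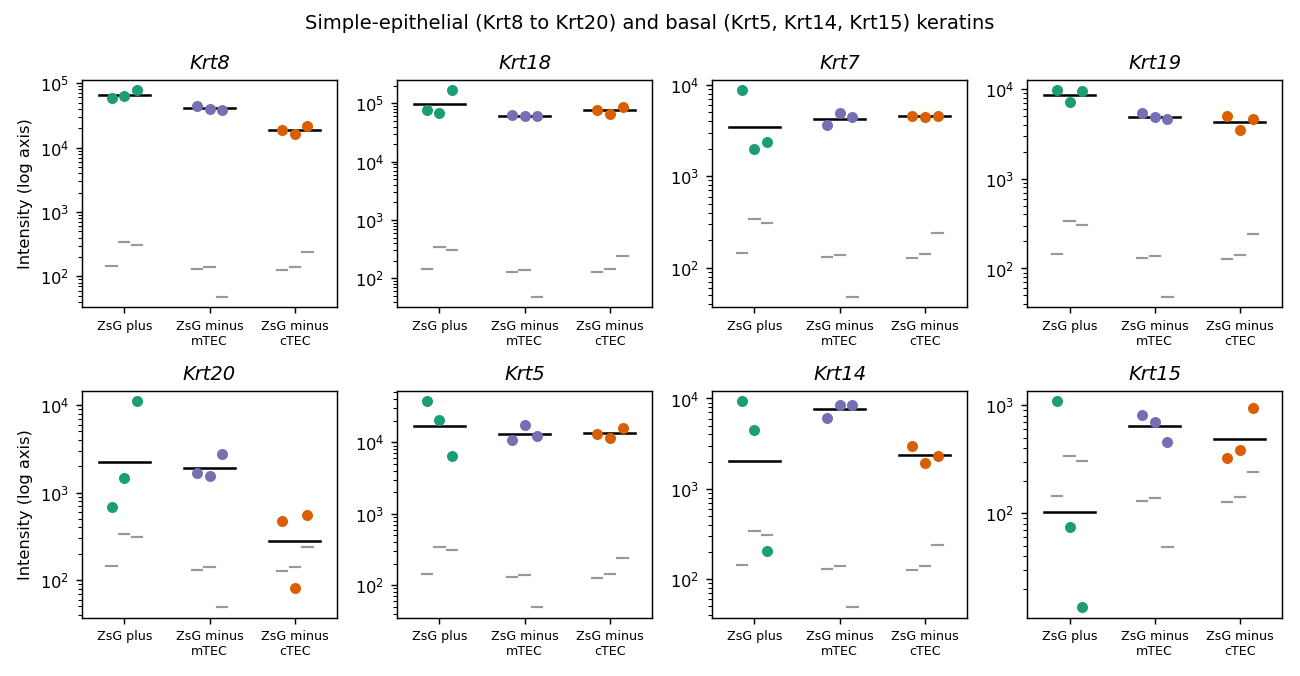
Intensity (log axis) of the 5 simple-epithelial and 3 basal keratins on each array. Points are arrays, black bars geometric means of a group, and grey ticks each array's brightest PheX or DapX control probe set. The brightest Krt8 probe set separates the 3 groups, whereas Krt5, Krt14 and Krt15 spread widest over the ZsG plus arrays.

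With all 9 arrays, basal keratins gave no difference past the threshold in any of the 3 comparisons. Krt5, the type II keratin of basal cells, had 37598, 20339 and 6483 in ZsG plus cells, 10699, 17448 and 12145 in ZsG minus mTEC, and 13175, 11465 and 15922 in ZsG minus cTEC. All 3 groups overlapped, and ZsG plus held both the highest and the lowest array. The differences were 0.38 ± 0.70 for ZsG plus over ZsG minus mTEC and -0.03 ± 0.70 for ZsG minus mTEC over ZsG minus cTEC, with adjusted p of 0.839 and 0.997.

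Krt14, the partner of Krt5, read 9332, 4428 and 206 in ZsG plus cells, 6138, 8576 and 8497 in ZsG minus mTEC, and 2965, 1953 and 2305 in ZsG minus cTEC. ZsG minus mTEC lay above ZsG minus cTEC without overlap, and ZsG plus replicate 3 was within its array's control range. ZsG minus mTEC over ZsG minus cTEC came to 1.69 ± 1.21, with an adjusted p of 0.682. The SD of Krt14 on the log2 scale was 0.27 and 0.30 in these groups but 2.91 in ZsG plus. ZsG plus enters this SE and p through the shared spread, so they do not show how well these 2 groups separate by themselves. Krt15, a keratin of basal cells and hair follicle stem cells, had 1090, 74.2 and 13.4 in ZsG plus cells, 813, 701 and 457 in ZsG minus mTEC, and 323, 382 and 939 in ZsG minus cTEC. Only ZsG plus replicate 1 exceeded its array's control range in that group, and no pair of groups separated. Without that array, Krt15 passed as lower against ZsG minus cTEC, by -3.95 with an adjusted p of 0.0488, against -2.25 and 0.402 with all 9 arrays. For ZsG plus over ZsG minus cTEC the basal median of -0.22 ran from -1.31 without ZsG plus replicate 1 to 1.05 without ZsG plus replicate 3, and it was 0.24 when arrays were centred on the median gene. With all 9 arrays that median is the value of the brightest Krt14 probe set. The other Krt14 probe sets gave 0.37 and 0.45, so its sign depends on the probe set.

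Next, the reporter-negative groups were compared, medullary over cortical, which asks how keratins differ between the compartments without the reporter. By limma, 3 keratins passed, all higher in ZsG minus mTEC: the inner root sheath keratins Krt71 and Krt73, and Krt16. Of all genes, 0.627% passed in either direction, 0.528% as higher and 0.0989% as lower. In 28 keratins all ZsG minus mTEC arrays lay above all ZsG minus cTEC arrays, where 16.6% of all genes did. Krt18 was the 1 keratin that separated the other way, where 11.8% of all genes did. At an unadjusted p under 0.05, 23 keratins were higher and 0 lower, against 8.4% and 3.9% of all genes. The log2 difference was above 0 for 41 keratins and for 53.9% of all genes. The keratin median was 1.67 and that of all genes 0.09, a gap of 1.58. This comparison shares its ZsG minus cTEC arrays with the previous one, so their values are not separate evidence.

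Krt71, a type II keratin of the inner root sheath of the hair follicle, read 109, 48.1 and 75.7 in ZsG plus cells, 582, 328 and 324 in ZsG minus mTEC, and 16.6, 36.7 and 40.9 in ZsG minus cTEC. Only the ZsG minus mTEC arrays were above their control range, and they overlapped neither other group. ZsG minus mTEC was at least 2.42-fold higher than ZsG minus cTEC, the cTEC arrays being set to their control value. The fitted log2 difference of the measured values was 3.76 ± 0.61, with an adjusted p of 0.0447.

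Krt73, a neighbour of Krt71 in the same cluster and of the same sheath, gave 412, 47.4 and 43.4 in ZsG plus cells, 1141, 1085 and 463 in ZsG minus mTEC, and 5.62, 35.5 and 17.8 in ZsG minus cTEC. Every cTEC array lay within its control range, as did ZsG plus replicates 2 and 3. The bound was at least 5.09-fold in favour of ZsG minus mTEC, and the fitted difference was 5.77 ± 1.02, with an adjusted p of 0.0491. Krt72, which lies between them, had a difference of 0.50 ± 1.16, with groups that overlapped. Krt25, a type I sheath keratin, stood at 253, 227 and 7.66 in ZsG plus cells, 820, 927 and 1943 in ZsG minus mTEC, and 99.6, 49.5 and 141 in ZsG minus cTEC. ZsG minus mTEC overlapped neither other group, its bound over ZsG minus cTEC was at least 6.98-fold, and the fitted 3.69 ± 1.25 had an adjusted p of 0.249.

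For Krt16 the difference of ZsG minus mTEC over ZsG minus cTEC was 4.0 ± 0.71, 16.0-fold, with an adjusted p of 0.0491. Krt10 and Krt77, which passed in the comparison above, here had 2.70 ± 0.52 and 4.37 ± 0.84, each with an adjusted p of 0.0629, and Krt79 had 2.52 ± 0.79 with an adjusted p of 0.208. Krt24, a type I keratin of the class of other keratins, had 2.45 ± 0.49 with an adjusted p of 0.0689. Krt80, a type II keratin within the control range on all cTEC arrays, was at least 4.81-fold higher in ZsG minus mTEC by its bound, and its fitted 3.18 ± 0.65 had an adjusted p of 0.0733. Krt78, of suprabasal epidermis, read 957, 1705 and 780 in ZsG plus cells, 4343, 4422 and 4299 in ZsG minus mTEC, and 416, 1762 and 1058 in ZsG minus cTEC. The ZsG minus mTEC arrays were the highest and almost equal, and the other groups overlapped. Krt78 differed by 2.25 ± 0.66 for ZsG minus mTEC over ZsG minus cTEC, with an adjusted p of 0.177.

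These 3 calls also depended on single arrays. None of the 48 keratins passed without any 1 of the ZsG minus mTEC or ZsG minus cTEC arrays. The same held for all 18194 genes, of which none passed in these settings. A ZsG plus array enters only through the shared spread. Leaving out ZsG plus replicate 1, 2 or 3 gave 2, 1 and 7 keratins past the threshold, and 151, 129 and 304 of all genes. Centring the arrays on the median gene gave 0 keratins and 48 of all genes. No log2 difference of the 3 changed sign, and all stayed between 3.35 and 6.38 without any 1 array, with adjusted p between 0.0304 and 0.186.

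Hair keratins as a class had a median of 1.26 for ZsG minus mTEC over ZsG minus cTEC, with 17 of 20 above 0 and 9 without overlap, where 53.9% and 16.6% of all genes were. On every cTEC array, 8 of the 20 were within the control range, so their differences there are set against values not above background. The 8 sheath and companion layer keratins had a median of 1.64 and the 12 shaft keratins 1.26. The brightest hair keratins were Krt84 and Krt81, both of the shaft. Krt84 read 692, 444 and 4622 in ZsG plus cells, 1060, 1053 and 1539 in ZsG minus mTEC, and 620, 602 and 813 in ZsG minus cTEC. ZsG minus mTEC lay above ZsG minus cTEC on every array, while ZsG plus covered the range of both. Krt81 had 581, 1276 and 367 in ZsG plus cells, 914, 757 and 856 in ZsG minus mTEC, and 267, 369 and 549 in ZsG minus cTEC. The same separation held, and ZsG plus again overlapped both. Their differences of ZsG minus mTEC over ZsG minus cTEC were 0.83 ± 0.84 and 1.15 ± 0.62, with adjusted p of 0.812 and 0.519. For Krt84 the SD on the log2 scale was 0.31 and 0.24 in these groups, but 1.79 in ZsG plus, which enters through the shared spread.

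In the class of other keratins, Krt23, a type I keratin, read 5829, 3477 and 10620 in ZsG plus cells, 5121, 4973 and 6101 in ZsG minus mTEC, and 958, 910 and 2450 in ZsG minus cTEC. The cTEC arrays were the lowest, and the other groups overlapped. Its differences over ZsG minus cTEC were 2.22 ± 0.64 for ZsG plus and 2.06 ± 0.64 for ZsG minus mTEC, with adjusted p of 0.116 and 0.204. Krt42, also type I, had 2623, 2055 and 911 in ZsG plus cells, 710, 2563 and 1956 in ZsG minus mTEC, and 378, 403 and 621 in ZsG minus cTEC. This order of groups was the same as for Krt23, and the differences were 1.90 ± 0.69 and 1.74 ± 0.69, with adjusted p of 0.184 and 0.331. Its other probe set gave 0.49 and 1.06, with ZsG plus overlapping ZsG minus cTEC. For ZsG plus over ZsG minus mTEC that probe set gave -0.57, against 0.15 in the brightest. Krt12, the keratin of the cornea, was within the control range on all cTEC arrays and at least 3.20-fold higher in ZsG minus mTEC, with an adjusted p of 0.131. In its other probe set these groups overlapped. Of the 7 members of this class, 6 separated ZsG minus mTEC above ZsG minus cTEC, as did 16.6% of all genes.

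**Figure D4:**
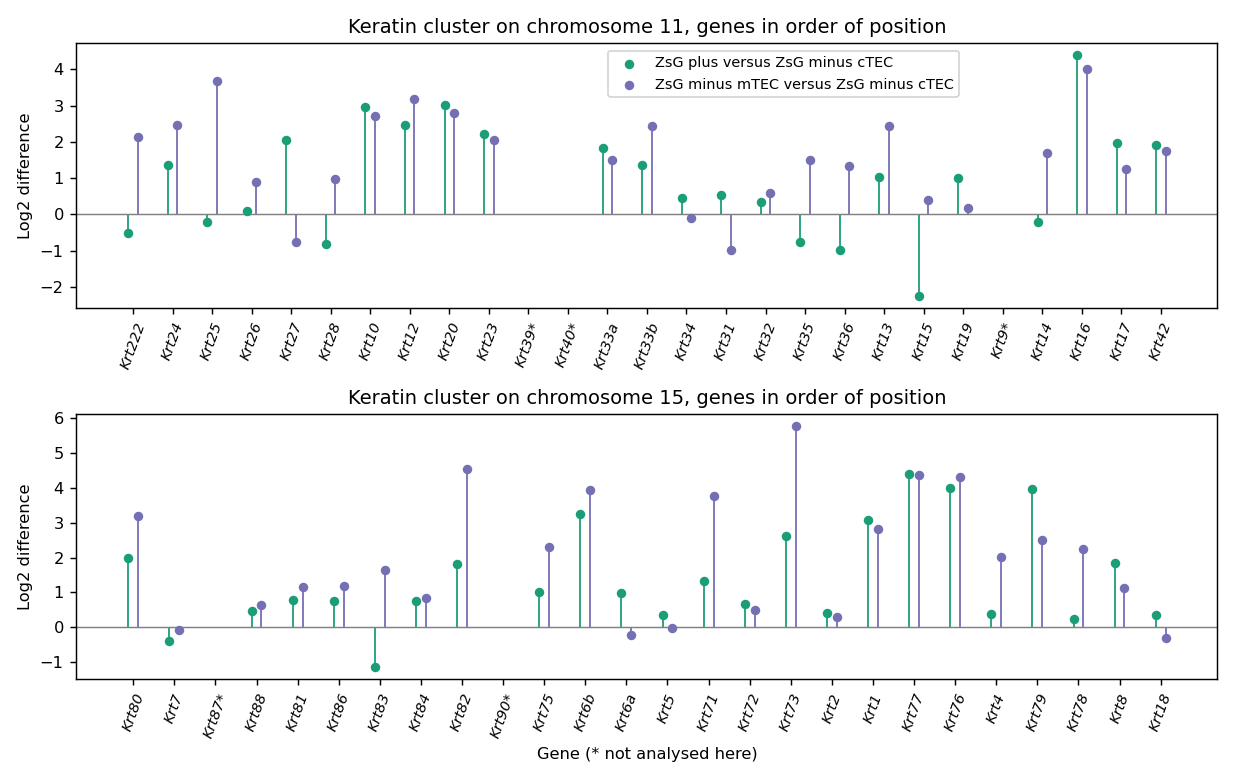
Log2 differences of keratins over ZsG minus cTEC in gene order along the clusters of chromosomes 11 and 15; green is ZsG plus and violet ZsG minus mTEC, and an asterisk marks a gene not analysed here. The violet differences of Krt82 and Krt73 are set against cTEC arrays within the control range, where their bounds are at least 3.04-fold and 5.09-fold, and those of Krt77 and Krt76 stand at 4.37 and 4.31.

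Position within the clusters was read as a description. On chromosome 15, 24 of 26 genes in the cluster were analysed, and a run of neighbours, Krt1, Krt77 and Krt76, had differences of 2.83, 4.37 and 4.31 for ZsG minus mTEC over ZsG minus cTEC. On chromosome 11, 24 of 27 were analysed, and Krt16, with 4.0, lay next to Krt14, with 1.69, and Krt17, with 1.25. The 25 type I keratins had a median of 1.50 and the 22 type II keratins 2.14.

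Between ZsG plus and ZsG minus mTEC, the comparison of reporter-positive cells with reporter-negative medullary cells, no keratin passed the limma threshold, which 0.22% of all genes did, 0.0165% as higher and 0.203% as lower. At an unadjusted p under 0.05, Krt27 was higher and 7 keratins were lower in ZsG plus cells, namely Krt78, Krt35, Krt36, Krt83, Krt25, Krt71 and Krt73, where 3.2% of all genes were higher and 10.2% lower. Groups did not overlap in 6 keratins higher in ZsG plus, which were Krt8, Krt10, Krt17, Krt18, Krt19 and Krt27, against 5.77% of all genes. They did not overlap in 8 keratins lower in ZsG plus, Krt24, Krt25, Krt35, Krt36, Krt71, Krt73, Krt78 and Krt80, against 12.3% of all genes. Krt35 was above the control range on no array of any group, and Krt27 on 1 ZsG plus array and no ZsG minus mTEC array, so their separation is between values mostly not above background. The keratin median of -0.32 differed by 0.01 from that of all genes, -0.33, and it became 0.31 when arrays were centred on the median gene, which moved the median of all genes to 0.30. The hair class, to which all of the 7 but Krt78 belong, had a median of -0.94.

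For the members named above, the differences of ZsG plus over ZsG minus mTEC were as follows. Krt10 had 0.26 ± 0.52, Krt77 had 0.04 ± 0.84, Krt16 had 0.39 ± 0.71 and Krt79 had 1.45 ± 0.79. Their adjusted p values were 0.857, 0.986, 0.837 and 0.458. Krt78 had -2.01 ± 0.66, Krt71 had -2.43 ± 0.61 and Krt73 had -3.13 ± 1.02, with adjusted p of 0.248, 0.161 and 0.247. Krt71 was within the control range on all ZsG plus arrays and was at least 1.60-fold higher in ZsG minus mTEC by its bound. In data simulated with 1 spread per group, the median SD over all genes, 24% of the genes given a log2 change of 2 were recovered in this comparison. Of those given a change of 4, 88% were. That median was 1.30 in ZsG plus, where the SD of a keratin reached 3.20, so these shares do not apply to each keratin.

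Other genes of the keratin system were read from lists of known partners. Of 7 measured proteins that bundle filaments or take part in cornification, in ZsG plus against ZsG minus cTEC 4 were higher and 0 lower, where 0.599% and 1.14% of all genes were. Flg, the precursor of filaggrin, which bundles keratin filaments, had 4914, 4140 and 3963 in ZsG plus cells, 1465, 2684 and 1858 in ZsG minus mTEC, and 106, 138 and 154 in ZsG minus cTEC. The 3 groups did not overlap, and all cTEC arrays were within the control range. Set against that range, Flg was at least 26.5-fold higher in ZsG plus, and at least 11.9-fold higher in ZsG minus mTEC, than among cTEC arrays. The fitted differences were 5.05 ± 0.51 and 3.89 ± 0.51, with adjusted p of 0.00781 and 0.0324. The others were Hrnr, Rptn and Kprp, genes of the cornifying epidermis. Hrnr differed by 3.59 ± 0.61 and Rptn by 3.34 ± 0.54, with adjusted p of 0.0329 and 0.0273, and Kprp, within the control range in ZsG minus cTEC, was at least 2.32-fold higher in ZsG plus. In ZsG minus mTEC over ZsG minus cTEC 3 of the 7 were higher, where 0.528% of all genes were: Flg, Krtdap by 4.03 ± 0.62, and Kprp by at least 1.81-fold. The list medians were 3.34 and 3.89 in these comparisons. Between ZsG plus and ZsG minus mTEC none of the 7 passed, where 0.22% of all genes did. At an unadjusted p under 0.05, 1 of the 7 was higher in ZsG plus, Flg by 1.15 ± 0.51, and 0 were lower. Of all genes, 3.2% were higher and 10.2% lower at that p.

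Proteins that link filaments to desmosomes and other anchors gave 0 of 10 past the threshold in each comparison. Of all genes, 0.22% passed for ZsG plus over ZsG minus mTEC, 1.74% for ZsG plus over ZsG minus cTEC and 0.627% between the ZsG minus groups. In the same order, 1 linker was higher at an unadjusted p under 0.05, then 1 higher and 1 lower, and 0 in the third. The shares of all genes at that p were 3.2% higher and 10.2% lower, 7.44% and 11.3%, and 8.4% and 3.9% in these comparisons, and the counts at an unadjusted p of the lists that follow stand beside the same shares. Dsp, desmoplakin, the desmosomal anchor of keratin, read 110299, 66634 and 91173 in ZsG plus cells, 44171, 54966 and 43583 in ZsG minus mTEC, and 44462, 34493 and 46273 in ZsG minus cTEC. ZsG plus was above the other groups on every array, with a difference of 1.08 ± 0.50 over ZsG minus cTEC and an adjusted p of 0.286. Of 16 epithelial regulators of keratin genes, Tfap2c, an AP-2 factor, passed as higher in ZsG minus mTEC over ZsG minus cTEC, as did 0.528% of all genes. In that comparison, 6 of the 16 were higher at an unadjusted p under 0.05. None passed for ZsG plus over ZsG minus cTEC, with 6 higher and 1 lower at an unadjusted p, or over ZsG minus mTEC, with 1 lower. Tfap2c had 7768, 2888 and 6092 in ZsG plus cells, 15004, 8684 and 15415 in ZsG minus mTEC, and 872, 499 and 1249 in ZsG minus cTEC, a difference of 3.95 ± 0.63 with an adjusted p of 0.0422 between the last 2 groups. The 3 groups did not overlap, with ZsG minus mTEC the highest. Of 7 regulators of hair keratins, 0 passed in any comparison, with 2 higher at an unadjusted p in each of those with ZsG minus cTEC and 0 in the third, and the list shares Foxn1 and Gata3 with the previous one.

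Of 13 intermediate filament genes that are not keratins, Nefm and Synm passed as lower in ZsG plus against ZsG minus cTEC and 0 as higher. Of all genes, 1.14% and 0.599% did. At an unadjusted p under 0.05, 4 were lower and 2 higher there, where 11.3% and 7.44% of all genes were. In each other comparison 1 of the 13 passed, as lower. The share of all genes passing as lower was 0.203% for ZsG plus over ZsG minus mTEC and 0.0989% between the ZsG minus groups. Nefm, a neurofilament subunit, had 16.6, 61.8 and 18.5 in ZsG plus cells, 970, 1879 and 806 in ZsG minus mTEC, and 2396, 1713 and 2273 in ZsG minus cTEC. ZsG plus was within the control range and overlapped neither other group. Nefm was in ZsG plus at least 4.61-fold lower against ZsG minus mTEC and at least 8.53-fold lower against ZsG minus cTEC. The fitted differences for ZsG plus were -5.42 ± 0.67 over ZsG minus mTEC and -6.30 ± 0.67 over ZsG minus cTEC, with adjusted p of 0.0328 and 0.00865. Synm, synemin, which joins vimentin and desmin filaments, read 217, 263 and 233 in ZsG plus cells, 693, 650 and 1088 in ZsG minus mTEC, and 13452, 10322 and 10349 in ZsG minus cTEC. The groups did not overlap, with ZsG plus the lowest and ZsG minus cTEC the highest. Its differences over ZsG minus cTEC were -5.57 ± 0.50 for ZsG plus and -3.84 ± 0.50 for ZsG minus mTEC, with adjusted p of 0.00781 and 0.0324. Vim, vimentin of mesenchymal cells, had -1.43 ± 0.67 in ZsG minus mTEC over ZsG minus cTEC with an adjusted p of 0.438, beside the fibroblast marker sums given above.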

How the data were processed

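Total RNA of 9 samples was measured on 1-colour arrays. The values the authors deposited were linear intensities of 45101 probe sets per array, and the software behind them is not named in the labels. A mean that leaves out 2% of probe sets at each end was equal on all arrays. Values were turned into log2 without an offset. Symbols came from the platform annotation, in which 34958 probe sets had 1 symbol, 932 several and 9211 none, and 61 probe sets were keratins. All 48 keratin gene identifiers carried the same symbol in RefSeq. The 9 columns all differed from each other. The brightest probe sets of Krt8, Krt14, Krt42 and Krt76 are of a design that can bind related transcripts, those of Krt12 and Krt82 of a design shared by several transcripts, and close copies such as Krt6a with Krt6b or Krt33a with Krt33b may share signal.

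The comparisons used limma 3.58.1 under R 4.3.3 (lmFit and eBayes, 1 coefficient per group, 6 residual and 3.28 prior degrees of freedom), two-sided, with Benjamini-Hochberg adjustment over 18194 genes and a threshold of 0.05. The value after ± is the standard error of a log2 difference. It rests on 1 spread shared by the 3 groups, so a group outside a comparison that scatters widely enlarges it too. A gene within the control range lay at or below the array's brightest PheX or DapX control probe set on all arrays of a group, and a fold against it is a bound with that value in its place. Per-array values are given for keratins past the threshold, the 2 brightest of each class and the simple-epithelial and basal classes, and for some other keratins chosen after their values were seen. The members and lists were chosen with earlier results of these data known. Samples sharing a replicate number did not deviate together (correlations of -0.015 to 0.013), so the numbers were not used as pairs. Simulated data gave all genes of a group the same spread, the median SD over all genes. There, 26%, 86% and 100% of genes changed by 2, 4 and 6 were recovered for ZsG plus versus ZsG minus cTEC, with 15 unchanged genes called. Between the ZsG minus groups these shares were 10%, 98% and 100%, with 0 called. For ZsG plus versus ZsG minus mTEC 22 unchanged genes were called. Alternatives varied the probe set choice, filter, scaling, offset, arrays fitted, weights, variance trend, replicate block and arrays left out. Figures were drawn with matplotlib 3.10.9.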

Additional observations from a re-analysis of the deposited data

How the results depend on the processing

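The direction of the 6 keratins that passed did not change under any alternative run, but their counts did. For ZsG plus versus ZsG minus cTEC, 4 keratins passed, against 7 with genes above the 40th percentile of mean intensity, and 0 with array weights, with the fit of 6 arrays and with the replicate block. Leaving out 1 array gave 0 to 5, and the 5, without ZsG plus replicate 1, were Krt1, Krt10, Krt16 and Krt79 as higher and Krt15 as lower. Between ZsG minus mTEC and ZsG minus cTEC, 3 passed, against 7 with the mean over a gene's probe sets, 5 with the percentile filter, which removed Krt71 and Krt73, 6 with quantile normalization, 7 with an offset of 50, 8 with the fit of 6 arrays, 15 with array weights and 5 with a variance trend. It was 0 with all probe sets tested, with arrays centred on the median gene and with the replicate block. Leaving out 1 array gave 0 to 7. For ZsG plus versus ZsG minus mTEC the count of 0 stayed at 0 except without ZsG plus replicate 2, when Krt83 passed, so leaving out 1 array gave 0 to 1. The replicate numbers share no batch that the labels name, so the block is given as counts only. The cause of these changes was not tested.

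Over all genes, ZsG plus versus ZsG minus mTEC called 3 higher and 37 lower, and 1 and 2 after centring or 4 and 11 after quantile normalization. ZsG plus versus ZsG minus cTEC called 109 and 208, against 158 and 113 after centring or 141 and 124 after quantile normalization. ZsG minus mTEC versus ZsG minus cTEC called 96 and 18, against 38 and 10 or 149 and 29. Without 1 array the totals ran over 0 to 230, 0 to 735 and 0 to 304. With the replicate block they were 0, 16 and 0, with array weights 0, 37 and 1220, and with the fit of 6 arrays 0, 0 and 548. The percentile filter, which left 10916 genes, gave 504 for ZsG plus versus ZsG minus cTEC and 176 between the ZsG minus groups. Between those groups the total was 216 with the mean over probe sets and 334 with the offset. It was 275 with the variance trend and 43 with all probe sets tested. Centring moved the median of all genes to 0.30, 0.32 and -0.08. Signal limits the dim members: 6 keratins in ZsG plus, 3 in ZsG minus mTEC, but 12 among cTEC arrays, lay within the control range on all arrays of the group.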

Other observations

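A probe set annotated to both Krt17 and Krt14, which the rule for members leaves out, read 29.5, 56.6 and 58.0 in ZsG plus cells, 18.1, 67.3 and 21.9 in ZsG minus mTEC, and 140, 185 and 42.0 in ZsG minus cTEC. These values lay within or near the control range, and its 2 highest arrays were ZsG minus cTEC replicates 1 and 2. Across the 9 keratins with several probe sets, all probe sets of a gene had the same sign of difference in 6 genes for ZsG plus versus ZsG minus mTEC, 7 for ZsG plus versus ZsG minus cTEC and 7 between the ZsG minus groups.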
